A study of Mus musculus with 12 samples.

Results

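Islet endocrine cells read hormones, fatty acids and neuropeptides through G protein-coupled receptors, and 10 genes of this signalling were listed for description: the receptors Glp1r, Gipr, Gcgr, Ffar1, Tacr3, Cckbr and Sstr3, the adenylyl cyclases Adcy5 and Adcy8, and the cAMP sensor Rapgef4. Members were chosen by gene symbol, and where a gene had several probe sets with that symbol alone, the brightest by mean log2 signal over 12 arrays was selected. Of the 10 genes, 9 were measured, among 19938 genes in all, each by 1 such probe set, so the mean signal decided nothing among them. Rapgef4 had no probe set with a symbol of its own in the platform annotation and was not analysed here.

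The receptors act through different G proteins. Glp1r binds the incretin hormone GLP-1, Gipr the incretin GIP and Gcgr glucagon, and all of them act through Gs, which switches on adenylyl cyclase and raises cAMP. Ffar1 senses long-chain fatty acids, Tacr3 the tachykinin neurokinin B and Cckbr gastrin and cholecystokinin, and these act through Gq, which releases calcium from internal stores. Sstr3 binds somatostatin and acts through Gi, which holds adenylyl cyclase down. Adcy5 and Adcy8 are adenylyl cyclases that make cAMP, Adcy8 being stimulated and Adcy5 inhibited by calcium. In beta cells cAMP amplifies the insulin secretion that glucose starts.

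RNA came from MIN6, an insulin-secreting line from a mouse insulinoma that is used as a beta cell model, transfected with siRNA against the repressor gene Hes3 or with a scrambled control siRNA. Defined Conditions (DC) were serum-free medium at 5% oxygen, and Classic Conditions (CC) were serum medium at 20% oxygen, so serum and oxygen changed together and their effects cannot be told apart. There were 4 DC arrays labelled Hes3 siRNA (numbered 1, 2, 5 and 7), 4 DC scrambled arrays, 2 CC arrays labelled Hes3 siRNA and 2 CC scrambled arrays. Per the labels, siRNA was added at 2 uM to wells of 50000 cells, and RNA was taken 12 to 24 hours later from samples of 1 experiment. The p-values below therefore measure only the spread between these samples, which may be technical, and their precision is limited by how few arrays there are.

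The beta cell genes Iapp, Ins2, Pdx1 and Neurod1 lay at or above the 97.9th percentile of signal among genes and Mafa at the 93.8th. The glucose transporter gene Slc2a2 lay at the 39.4th. Hes3, the targeted gene (probe set 10518902), showed no fall under its siRNA label. Its log2 signal was 7.37, 7.36, 7.38 and 7.25 in the DC arrays labelled Hes3 siRNA, against 7.10, 7.24, 7.19 and 7.22 in the DC scrambled arrays (log2 fold change 0.15 ± 0.0767 SE, limma adjusted p = 0.114). In CC it was 7.22 and 7.23 in the arrays labelled Hes3 siRNA, against 7.23 and 6.82 in the scrambled arrays (limma adjusted p = 1). The Hes3 probe set was dim, at the 29.8th percentile of signal, so a fall may not show. Between the labels in DC, genes of its decile of mean signal had a median log2 fold change of 0.207. Whether the siRNA lowered Hes3 is therefore not settled by these values, and the siRNA groups are named by their labels. The directions below are those of labels. The SD of log2 signal over all probe sets was 1.76 to 1.80 in the DC arrays labelled Hes3 siRNA, lowest in arrays 1 and 5, and 1.82 to 1.90 in the other 8 arrays.

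Tacr3 and Cckbr, both Gq-coupled peptide receptors, were over 3-fold lower in DC than in CC under either siRNA label, while the incretin receptor Glp1r and the fatty acid receptor Ffar1 passed the test in none of the 5 contrasts. In DC against CC with scrambled siRNA, 0 of the 9 genes were higher and 2 were lower (limma adjusted p under 0.05), where 8.54% of all genes passed, 3.09% as higher and 5.45% as lower. In DC against CC with Hes3 siRNA, 3 of the 9 were higher (Gipr, Adcy8 and Adcy5) and 2 were lower, where 40.1% of all genes passed, 21.2% as higher and 18.8% as lower. For Hes3 against scrambled siRNA in DC, 2 of the 9 were higher (Gcgr and Adcy5) and 1 was lower (Tacr3), where 47.2% of all genes passed, 28.9% as higher and 18.3% as lower. With shares this large, the count of 3 of 9 is near the background and is not a result about these genes. For Hes3 against scrambled siRNA in CC, 0 of the 9 passed (0 at an unadjusted limma p under 0.05), where 0.0% of all genes passed and 415 genes had an unadjusted p under 0.05. The difference between the siRNA contrasts of DC and CC passed the test for 0 of the 9 genes (2 at an unadjusted limma p under 0.05, Tacr3 and Gipr), where 0.0% of all genes passed and 3471 had an unadjusted p under 0.05.

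**Figure D1:**
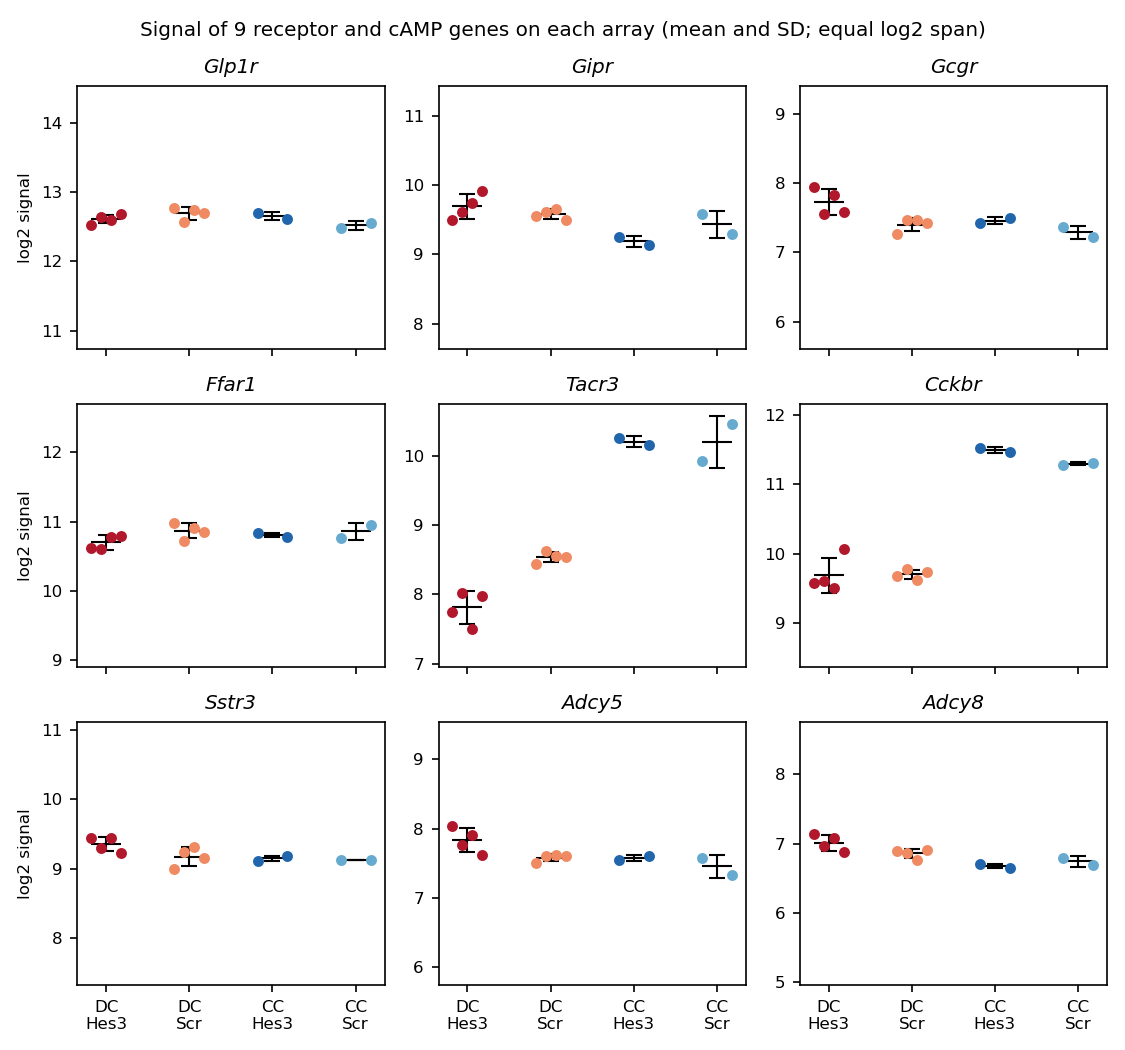
Log2 signal (vertical axis) of the 9 genes on each of the 12 arrays, by group, with points for arrays and bars for the mean and SD (n = 4 in DC, n = 2 in CC); every panel spans the same number of log2 units. Tacr3 lies at 7.50 to 8.63 and Cckbr at 9.50 to 10.06 on the DC arrays, below all CC arrays of the same gene, while Glp1r stays between 12.48 and 12.77 throughout.

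Tacr3 encodes the neurokinin 3 receptor. With scrambled siRNA its log2 signal was 8.44, 8.63, 8.55 and 8.54 in DC, against 9.93 and 10.46 in CC. With Hes3 siRNA it was 7.75, 8.02, 7.50 and 7.97 in DC, against 10.25 and 10.15 in CC. The order of group means was thus CC with Hes3 siRNA (10.20 ± 0.0761 SD, n = 2), CC with scrambled siRNA (10.19 ± 0.373, n = 2), DC with scrambled siRNA (8.54 ± 0.0743, n = 4) and DC with Hes3 siRNA (7.81 ± 0.239, n = 4), and only the CC groups overlapped each other. The log2 fold change of DC against CC was -1.65 ± 0.14 (SE) with scrambled siRNA, a 3.15-fold lower signal and rank 6 among the decreases of 19938 genes (limma adjusted p = 3.11e-06). With Hes3 siRNA it was -2.39 ± 0.14, 5.24-fold lower and rank 2 among the decreases (limma adjusted p = 9.08e-08). Within DC, Tacr3 was 1.66-fold lower in the arrays labelled Hes3 siRNA than in the scrambled arrays (log2 fold change -0.73 ± 0.114 SE, limma adjusted p = 0.00217, rank 47 among the decreases). Without DC arrays 1 and 5 labelled Hes3 siRNA this difference was -0.54 ± 0.111 (limma adjusted p = 0.0443). In CC the same contrast was 0.01 ± 0.162 (95% interval -0.33 to 0.35), and the siRNA contrasts differed between DC and CC by -0.74 ± 0.198 (limma adjusted p = 0.179). With 1 array left out at a time, that difference ran from -1.0012 to -0.4736. It was -1.0012 without CC scrambled array 2, at 10.46 the highest Tacr3 signal, which leaves 1 array in that group.

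Cckbr encodes the gastrin and cholecystokinin B receptor. Its log2 signal with scrambled siRNA was 9.68, 9.78, 9.63 and 9.73 in DC, against 11.28 and 11.31 in CC. The arrays labelled Hes3 siRNA had 9.58, 9.60, 9.50 and 10.06 in DC, against 11.53 and 11.46 in CC. The DC arrays lay below the CC arrays with no overlap, and array 7 was the highest of its DC group. The log2 fold change of DC against CC was -1.59 ± 0.117 (SE) with scrambled siRNA, 3.02-fold lower (limma adjusted p = 1.24e-06), and -1.81 ± 0.117 with Hes3 siRNA, 3.5-fold lower (limma adjusted p = 2.74e-07). It stood at rank 8 among the decreases of both comparisons. Between the siRNA labels in DC it differed by -0.02 ± 0.0954 (95% interval -0.22 to 0.18, limma adjusted p = 0.877), and the DC groups overlapped.

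In RNA of whole cultures, fewer cells of a type and less RNA per cell cannot be told apart, and the islet alpha cell genes Gcg and Ttr were lower in DC too. Gcg, the glucagon gene, had log2 fold changes of -0.93 ± 0.116 (SE) with scrambled and -1.05 ± 0.116 with Hes3 siRNA in DC against CC, and Ttr, the transthyretin gene, had -0.81 ± 0.143 and -0.69 ± 0.143 (limma adjusted p from 1.5e-05 to 0.00236). Of 6 measured alpha cell markers, 2 were lower and 0 higher with scrambled siRNA, and 2 were lower and 2 higher with Hes3 siRNA. Over all genes, 5.45% were lower and 3.09% higher with scrambled siRNA, and 18.8% were lower and 21.2% higher with Hes3 siRNA. The median log2 fold change of the 6 was -0.037 with scrambled and 0.0099 with Hes3 siRNA, so the list as a whole did not fall as Gcg and Ttr did. The mean log2 signal of the 6 ran from 10.1 to 10.2 in DC with Hes3 siRNA, 9.99 to 10.1 in DC with scrambled siRNA, and 10.3 to 10.4 in both CC groups. The mean over 13 beta cell markers was 11.2 to 11.3 on every array, though single markers moved. In DC against CC, 2 of the 13 were higher and 0 lower with scrambled siRNA (log2 fold changes from -0.0754 to 0.543). With Hes3 siRNA 3 were higher and 2 lower (from -0.438 to 0.467). The part of these markers in the fall of Tacr3 and Cckbr was not tested.

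The promoters of both genes are shown because both were lower in DC. In RefSeq's GRCm38.p6 table, 8 of the 10 genes had a window from 250 bases before to 50 after the start, and Sstr3 had 2 windows, which gave 9. Capitals mark matches to the short CRE motif TGACG, known to bind CREB, in Tacr3, and to ACGTG in Cckbr, each searched on both strands. ACGTG is a form of the core of hypoxia response elements, and the form GCGTG was not searched. A window without ACGTG can therefore still hold such a core. The windows are Tacr3 at chr3:134828757-134829056 and Cckbr at chr7:105425481-105425780, both on the plus strand.
Tacr3: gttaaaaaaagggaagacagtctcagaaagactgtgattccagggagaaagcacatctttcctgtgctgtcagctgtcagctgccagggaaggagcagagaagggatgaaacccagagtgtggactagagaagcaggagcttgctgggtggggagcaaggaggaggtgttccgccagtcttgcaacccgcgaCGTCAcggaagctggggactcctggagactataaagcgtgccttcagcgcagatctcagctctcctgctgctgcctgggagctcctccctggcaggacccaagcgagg
Cckbr: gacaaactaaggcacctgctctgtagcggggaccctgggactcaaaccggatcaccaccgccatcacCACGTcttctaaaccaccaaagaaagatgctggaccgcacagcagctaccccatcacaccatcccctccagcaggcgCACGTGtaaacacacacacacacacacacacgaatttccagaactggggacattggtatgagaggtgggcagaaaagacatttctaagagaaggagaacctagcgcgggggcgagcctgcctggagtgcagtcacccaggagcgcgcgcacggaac
Tacr3 held 1 match to TGACG, on the reverse strand, 58 bases before the start, and no match to ACGTG. Cckbr held 3 matches to ACGTG, at 183, 106 and 105 bases before the start, and no match to TGACG. The matches at 106 and 105 lie in 1 copy of CACGTG, the canonical E box, which reads the same on both strands. Of 32851 promoter windows, 20.8% held TGACG, 19.6% ACGTG and 7.15% CACGTG. The full CRE, TGACGTCA, was in 1.79% of windows and in 0 of the 9. CACNAG, the N box bound by Hes proteins, was in 42.5% of windows and had no match in the Tacr3 and Cckbr windows. Sstr3 passed the test in none of the 5 contrasts. In 1 of its 2 windows it held 1 match to TGACG, 3 to ACGTG and 1 copy of CACGTG. These matches describe letters and are not binding sites.

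Ffar1, the fatty acid receptor gene, varied less than the other Gq-coupled receptor genes of the 9. Its log2 signal was 10.62, 10.60, 10.78 and 10.80 in DC with Hes3 siRNA, and 10.98, 10.72, 10.91 and 10.85 in DC with scrambled siRNA. In CC it was 10.83 and 10.78 with Hes3 siRNA, and 10.76 and 10.95 with scrambled siRNA. The groups overlapped in each of the 4 comparisons. DC against CC differed by 0.01 ± 0.0877 (SE) with scrambled siRNA (95% interval -0.18 to 0.20) and by -0.11 ± 0.0877 with Hes3 siRNA (-0.29 to 0.08). In DC the siRNA labels differed by -0.17 ± 0.0716 (limma adjusted p = 0.064).

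Among the Gs-coupled receptors, Glp1r stood at the 99.7th percentile of signal among genes. Probe sets differ in brightness, so such a percentile places a signal and not an amount of RNA. The Glp1r log2 signal was 12.53, 12.64, 12.60 and 12.68 in DC with Hes3 siRNA, and 12.77, 12.57, 12.75 and 12.69 in DC with scrambled siRNA. In CC it was 12.69 and 12.61 with Hes3 siRNA, and 12.48 and 12.56 with scrambled siRNA. The whole span over 12 arrays was thus narrow. With scrambled siRNA the DC arrays lay just above the CC arrays (log2 fold change 0.18 ± 0.0759 SE, limma adjusted p = 0.204). With Hes3 siRNA DC against CC was -0.04 ± 0.0759 (95% interval -0.20 to 0.12). The siRNA labels differed by -0.08 ± 0.062 in DC (95% interval -0.21 to 0.05) and by 0.13 ± 0.0876 in CC (-0.05 to 0.32).

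Gipr, the GIP receptor gene, was higher in DC than in CC with Hes3 siRNA. Its log2 signal there was 9.50, 9.61, 9.74 and 9.92 in DC, against 9.25 and 9.14 in CC, with no overlap (log2 fold change 0.50 ± 0.106 SE, 1.42-fold, limma adjusted p = 0.00267). Without CC array 2 labelled Hes3 siRNA the difference was 0.45 (limma adjusted p = 0.0521). With scrambled siRNA it was 9.56, 9.62, 9.65 and 9.50 in DC, against 9.58 and 9.30 in CC, and these groups overlapped (0.14 ± 0.106, limma adjusted p = 0.534). The CC groups differed by -0.25 ± 0.122 (limma adjusted p = 1), the arrays labelled Hes3 siRNA being lower. The difference between the siRNA contrasts of DC and CC was 0.36 ± 0.149 (limma adjusted p = 0.254).

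Gcgr, the glucagon receptor gene, had its highest signals in DC with Hes3 siRNA, on arrays 1 and 5. Its log2 signal in DC was 7.94, 7.55, 7.83 and 7.58 with Hes3 siRNA, against 7.26, 7.46, 7.46 and 7.42 with scrambled siRNA. The DC groups did not overlap and differed by 0.32 ± 0.0848 on the log2 scale (SE, limma adjusted p = 0.00945). Without arrays 1 and 5 it was 0.16 (limma adjusted p = 0.167). In CC the signal was 7.42 and 7.50 with Hes3 siRNA, against 7.36 and 7.22 with scrambled siRNA (0.17 ± 0.12, limma adjusted p = 1). DC against CC gave 0.11 ± 0.104 with scrambled siRNA (limma adjusted p = 0.652) and 0.27 ± 0.104 with Hes3 siRNA (limma adjusted p = 0.0526).

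Sstr3, the Gi-coupled receptor gene of the 9, passed the test in none of the 5 contrasts. The log2 signal was 9.44, 9.30, 9.44 and 9.23 in DC with Hes3 siRNA, and 9.00, 9.23, 9.31 and 9.16 in DC with scrambled siRNA. In CC it was 9.12 and 9.18 with Hes3 siRNA, and 9.12 and 9.13 with scrambled siRNA. The DC groups overlapped and differed by 0.18 ± 0.0724 (SE, limma adjusted p = 0.052), a difference that was 0.28 and past the threshold with quantile normalization (limma adjusted p = 0.0193). DC against CC gave 0.05 ± 0.0887 with scrambled siRNA and 0.21 ± 0.0887 with Hes3 siRNA (limma adjusted p = 0.844 and 0.0702). With Hes3 siRNA this contrast passed under quantile (0.30, limma adjusted p = 0.036) and cyclic loess normalization (0.27, limma adjusted p = 0.0435) and without DC array 7 of that label (0.25, limma adjusted p = 0.0335).

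The cyclase gene Adcy5 also had its highest signals on DC arrays 1 and 5 of the Hes3 siRNA label. In DC its log2 signal was 8.04, 7.77, 7.92 and 7.63 with Hes3 siRNA, against 7.50, 7.61, 7.62 and 7.61 with scrambled siRNA. In CC it was 7.55 and 7.60 with Hes3 siRNA, against 7.58 and 7.34 with scrambled siRNA. The DC groups came apart only narrowly, and the CC groups overlapped. The log2 fold change between the labels in DC was 0.25 ± 0.082 (SE, limma adjusted p = 0.0222), and 0.11 without arrays 1 and 5 (limma adjusted p = 0.327). The difference also missed the threshold without array 1 (0.19, limma adjusted p = 0.0729), without array 5 (0.23, limma adjusted p = 0.0659) and without DC scrambled array 1 (0.23, limma adjusted p = 0.0682). DC against CC gave 0.26 ± 0.1 with Hes3 siRNA (limma adjusted p = 0.0491), a call that 15 of 20 alternatives ended, and 0.13 ± 0.1 with scrambled siRNA (limma adjusted p = 0.575).

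Adcy8, the calcium-stimulated cyclase gene, had the dimmest probe set of the 9, at the 22.8th percentile of signal. Its log2 signal was 7.14, 6.96, 7.08 and 6.88 in DC with Hes3 siRNA, and 6.90, 6.87, 6.77 and 6.90 in DC with scrambled siRNA. In CC it was 6.70 and 6.65 with Hes3 siRNA, and 6.80 and 6.69 with scrambled siRNA. With Hes3 siRNA the DC arrays lay above the CC arrays (log2 fold change 0.34 ± 0.081 SE, limma adjusted p = 0.00599). This call was lost without CC array 2 labelled Hes3 siRNA (0.31, limma adjusted p = 0.073), under quantile normalization (0.18, limma adjusted p = 0.0746) and under cyclic loess normalization (0.15, limma adjusted p = 0.0991). With scrambled siRNA DC against CC was 0.12 ± 0.081 (limma adjusted p = 0.503), and the DC groups overlapped (0.15 ± 0.0662, limma adjusted p = 0.0649).

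**Figure D2:**
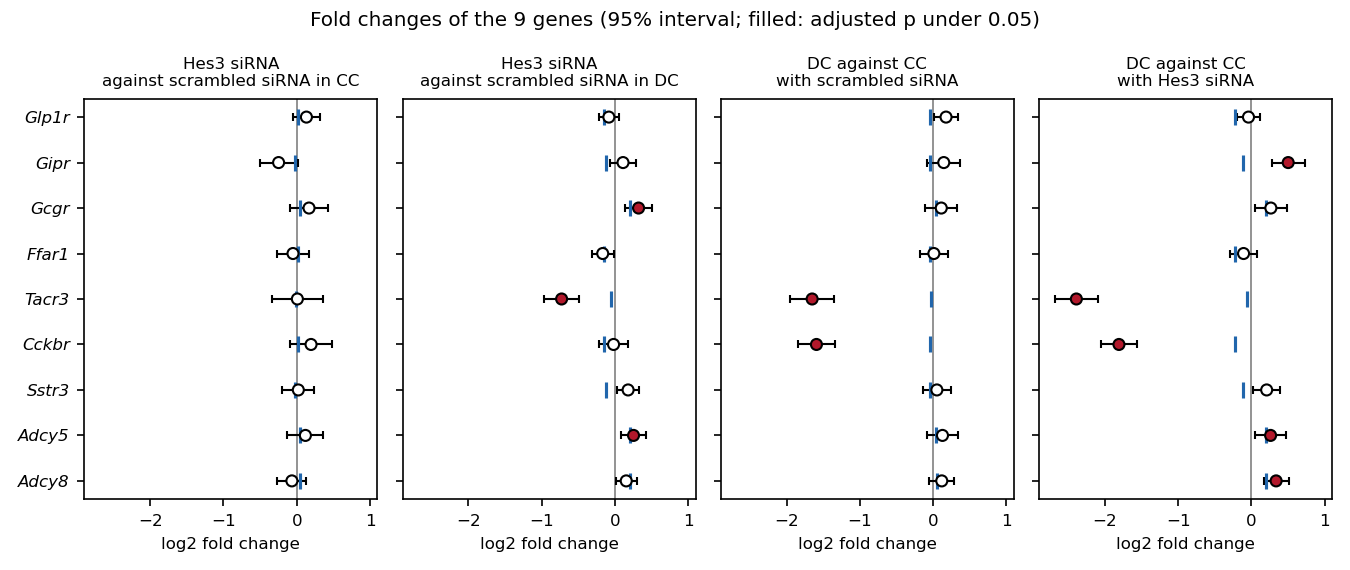
Log2 fold change (horizontal axis) of each of the 9 genes in 4 comparisons, with 95% limma intervals; filled points had an adjusted p under 0.05, and blue ticks give the median over all genes in the same decile of mean signal. Tacr3 (-1.65 and -2.39) and Cckbr (-1.59 and -1.81) stand far left of their ticks in DC against CC.

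In DC the arrays labelled Hes3 siRNA differed from the scrambled arrays across all genes in a way that followed signal. Genes of deciles 3, 4 and 5 of mean signal had median log2 fold changes of 0.192 to 0.21, and those of the top decile -0.152. The medians beside Gcgr and Adcy5 (0.32 and 0.25) were both 0.21, and beside Adcy8 (0.15) 0.207. Beside Sstr3 and Gipr (0.18 and 0.11) the median was -0.117, beside Glp1r, Ffar1 and Cckbr (-0.08, -0.17 and -0.02) it was -0.152, and beside Tacr3 (-0.73) it was -0.0583. In DC against CC with Hes3 siRNA the medians ran from 0.196 in the fourth decile to -0.221 in the top decile. With scrambled siRNA they ran from 0.0496 to -0.0423. The part of this shift in the values of Gcgr, Adcy5 and Adcy8 was not tested.

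**Figure D3:**
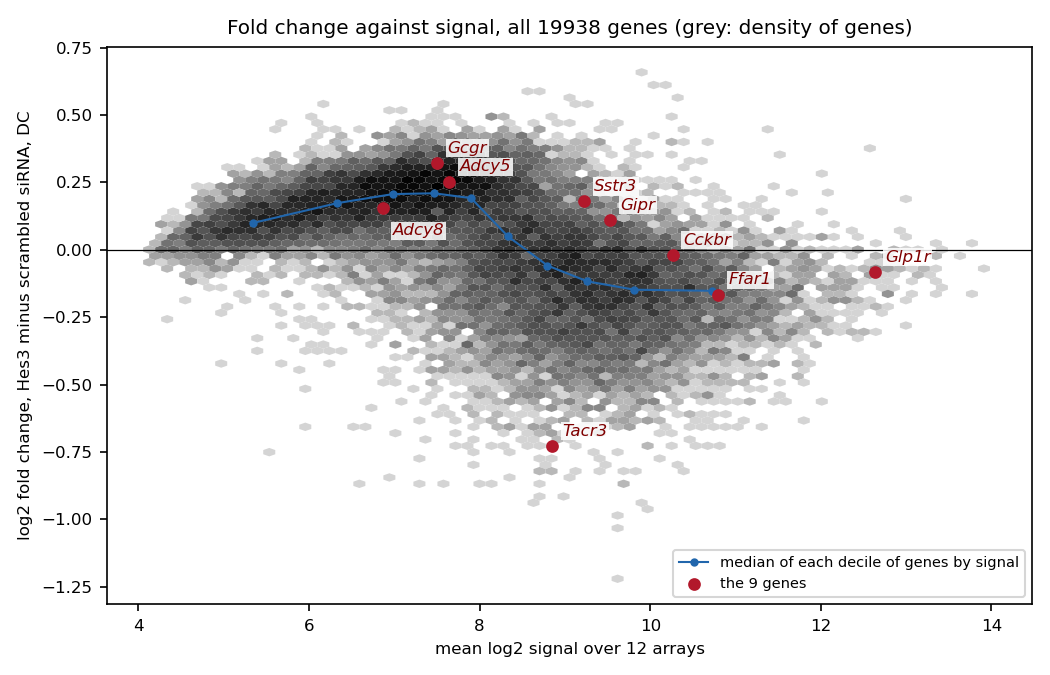
Log2 fold change of Hes3 against scrambled siRNA in DC (vertical axis) against mean log2 signal over 12 arrays (horizontal axis) for all 19938 genes (grey density), with the median of each decile of signal (blue line) and the 9 genes (red). Tacr3 at -0.73 lies well below the line, while Gcgr at 0.32 and Adcy5 at 0.25 lie above the 0.21 of their decile.

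Some other receptor genes of the islet were also lower in DC than in CC with scrambled siRNA. Cckar, the cholecystokinin A receptor gene, fell (mean log2 signal 7.84 in DC against 8.84 in CC, limma adjusted p = 2.03e-05), as did Vipr2, a VIP receptor gene (-0.50 ± 0.0792, limma adjusted p = 0.000736). With Hes3 siRNA the values were -0.90 ± 0.103 for Cckar and -0.52 ± 0.0792 for Vipr2. The GABA-B receptor subunit gene Gabbr2 fell by 0.43 with scrambled and by 0.55 with Hes3 siRNA on the log2 scale (limma adjusted p = 0.000692 and 3.52e-05). Of 20 measured Gq-coupled receptor genes besides the members, 2 were lower and 0 higher with scrambled siRNA, and 2 were lower and 4 higher with Hes3 siRNA. The other lower one was Oxtr, the oxytocin receptor gene (-0.33 ± 0.0828 and -0.59 ± 0.0828), which missed the threshold without CC scrambled array 2 (-0.27, limma adjusted p = 0.225) and without DC scrambled array 1 (-0.30, limma adjusted p = 0.055). Of 13 other Gs-coupled receptor genes, 1 was lower and 0 higher with scrambled siRNA, and 1 was lower and 5 higher with Hes3 siRNA. Of 24 other Gi-coupled receptor genes, 1 was lower and 2 higher with scrambled siRNA, and 3 were lower and 5 higher with Hes3 siRNA. Over all genes, 5.45% were lower and 3.09% higher with scrambled siRNA, and 18.8% were lower and 21.2% higher with Hes3 siRNA, so most of these shares lie near the background and are no result about receptor genes. List medians with scrambled siRNA were 0.034 for Gq, 0.031 for Gs and 0.054 for Gi, beside 0.019 over all genes.

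Downstream of the receptors, the cyclase gene Adcy9 fell in DC against CC with scrambled siRNA (log2 fold change -0.52 ± 0.0828 SE, limma adjusted p = 0.000781). With Hes3 siRNA Adcy9 was at -0.41 ± 0.0828 (limma adjusted p = 0.00189), though not past the threshold under quantile normalization (limma adjusted p = 0.0593). Of 8 cyclase genes besides Adcy5 and Adcy8, 1 was lower and 0 higher with scrambled siRNA, and 1 was lower and 3 higher with Hes3 siRNA. Pclo, whose product piccolo is a partner of Rapgef4 in insulin secretion, rose by 0.73 ± 0.101 with scrambled and by 0.75 ± 0.101 with Hes3 siRNA (limma adjusted p = 0.000248 and 8.56e-05). With Hes3 siRNA the protein kinase A regulatory subunit genes Prkar2a (-1.20 ± 0.169) and Prkar1a (-0.52 ± 0.0779) fell, as did the small GTPase gene Rap1b (-0.63 ± 0.107, limma adjusted p = 0.000566). Prkar1a was also called lower with scrambled siRNA (-0.418 to -0.239 with single arrays left out), though not under every alternative. Among 25 cAMP effector genes, 2 were lower and 1 higher with scrambled siRNA, and 7 were lower and 6 higher with Hes3 siRNA. Among 25 G protein subunit genes, 1 was lower and 0 higher with scrambled siRNA, and 9 were lower and 1 higher with Hes3 siRNA. The median over the subunits was -0.042 with scrambled and -0.13 with Hes3 siRNA, where that over all genes was 0.019 and 0.091. Of 16 phosphodiesterase genes that break down cAMP, 1 was lower and 0 higher with scrambled siRNA, and 2 were lower and 1 higher with Hes3 siRNA. Over all genes, 5.45% were lower and 3.09% higher with scrambled siRNA, and 18.8% were lower and 21.2% higher with Hes3 siRNA. With scrambled siRNA the counts of these lists are near the background for so few genes, and are no result about the lists. With Hes3 siRNA the cAMP effector counts are near the background. The 9 lower subunit genes became 3 under quantile and 5 under cyclic loess normalization, recounted after the data were seen.

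Genes of a receptor desensitisation list, which also holds the receptor activity-modifying protein genes Ramp1, Ramp2 and Ramp3, moved in both directions. Rgs4 and Rgs17, whose products speed the switching off of G proteins, fell by 0.72 and 0.45 on the log2 scale in DC against CC with scrambled siRNA, and by 0.97 and 0.43 with Hes3 siRNA. Grk5, a receptor kinase gene, rose by 0.63 ± 0.104 with scrambled and by 0.59 ± 0.104 with Hes3 siRNA (limma adjusted p = 0.00103 and 0.000705). Of 20 measured genes of the desensitisation list, 3 were lower and 1 higher with scrambled siRNA, and 6 were lower and 7 higher with Hes3 siRNA. Of 19 genes known as CREB targets, 6 were lower and 1 higher with scrambled siRNA, and 10 were lower and 0 higher with Hes3 siRNA. Dusp1, a MAP kinase phosphatase gene, had -0.86 ± 0.104 and -1.22 ± 0.104, and the nuclear receptor gene Nr4a2 had -0.80 ± 0.102 and -1.08 ± 0.102 (limma adjusted p from 2.07e-06 to 0.000126). Fos, the AP-1 gene, had -0.64 ± 0.102 and -0.46 ± 0.102, and with Hes3 siRNA missed the threshold without CC array 2 labelled Hes3 siRNA (-0.41, limma adjusted p = 0.0603). Dusp1, Nr4a2 and Fos are also known to respond to serum growth factors. The median of the CREB target list was -0.21 with scrambled and -0.26 with Hes3 siRNA, beside 0.019 and 0.091 over all genes. Of all genes, 5.45% were lower and 3.09% higher with scrambled siRNA, and 18.8% were lower and 21.2% higher with Hes3 siRNA. These shares are the background for the counts of both lists. With Hes3 siRNA, the 10 lower CREB targets became 5 under quantile and 7 under cyclic loess normalization.

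**Figure D4:**
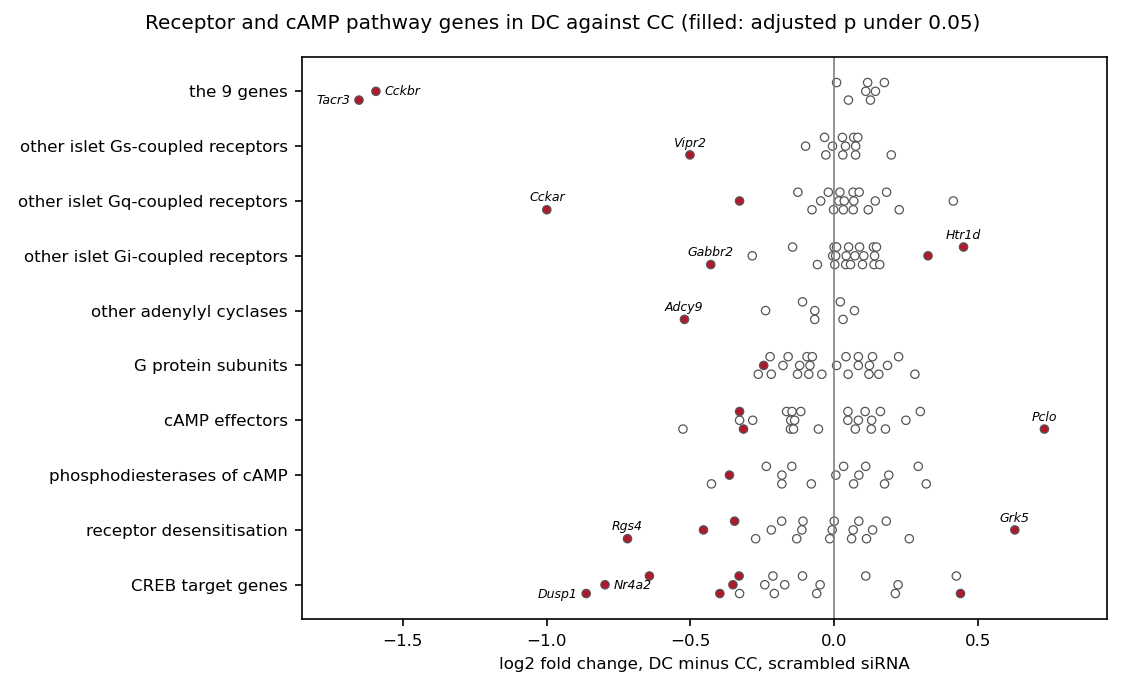
Log2 fold change of DC against CC with scrambled siRNA (horizontal axis) for the 9 genes and for 9 lists of receptor and cAMP pathway genes; each point is a gene, and filled points had a limma adjusted p under 0.05. Tacr3 and Cckbr lie farthest left, followed by Cckar and by Dusp1 at -0.86, while Pclo at 0.73 and Grk5 at 0.63 lie farthest right.

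For Hes3 against scrambled siRNA in DC, 28.9% of all genes were higher and 18.3% lower, and several lists of very different cells leaned to higher calls. Of the other receptor genes, 14 of 20 Gq-coupled, 8 of 13 Gs-coupled and 11 of 24 Gi-coupled ones were higher, and 1, 0 and 4 were lower. This lean was not particular to receptors. Of acinar markers 6 of 9 were higher, of duct markers 4 of 6, and of fibroblast and matrix markers 8 of 13. Of macrophage and endothelial markers 8 of 12 were higher, of delta, PP and epsilon cell markers 4 of 6, and of alpha cell markers 3 of 6. In these lists 0 were lower. Neuronal markers (3 of 11 higher, 5 lower) and beta cell markers (2 of 13 higher, 4 lower) leaned the other way. Under cyclic loess normalization the higher receptor genes numbered 2 of 20 Gq-coupled, 2 of 13 Gs-coupled and 3 of 24 Gi-coupled, and without DC arrays 1 and 5 labelled Hes3 siRNA 0 in each list. Sctr, the secretin receptor gene, had 0.33 ± 0.0735 (SE, limma adjusted p = 0.00553), and Chrm1, the muscarinic M1 receptor gene, had 0.39 ± 0.0905 (limma adjusted p = 0.00606). Of 8 other cyclase genes 3 were higher, with Adcy4 at 0.36 ± 0.0755 (limma adjusted p = 0.00435), and 0 lower. Among 25 cAMP effector genes 3 were higher and 9 lower, with the protein kinase A inhibitor gene Pkia at -0.45 ± 0.078 (limma adjusted p = 0.0029) and Rap1a at -0.60 ± 0.143 (limma adjusted p = 0.0068). Of 16 phosphodiesterase genes 1 was higher and 5 lower, with Pde3b at -0.40 ± 0.0793 (limma adjusted p = 0.00374). Among 25 G protein subunit genes 3 were higher and 2 lower, among 20 genes of the desensitisation list 3 and 2, and among 19 CREB targets 2 and 6. Of 25 pathway and marker genes named from the lists and called here, 2 kept their call without DC arrays 1 and 5 labelled Hes3 siRNA, namely Pkia and the beta cell transcription factor gene Neurod1. The part of the shift by signal given above in these counts was not tested.

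The genes whose pattern was most like each of the 9 were found by Pearson's r over the 12 arrays, given as a description, since most of the pattern is the difference between groups that all 12 arrays share. Closest to Tacr3 were Slc35f1 (0.992), Scnn1b (0.992) and Nr4a2 (0.99). For Cckbr these were Nrg1 (0.994), Slc16a10 (0.991) and Itm2c (0.991). Glp1r had the lowest leading value of the 9, with Idh1 (0.845), Rbm3 (0.842) and Adh5 (0.791), and Ffar1 followed with Acbd6 (0.91). The leading genes of the others were Mapk8ip3 for Gipr (0.97), Ccdc42 for Gcgr (0.986), Sis for Sstr3 (0.986), Prima1 for Adcy5 (0.99) and Csn2 for Adcy8 (0.955).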

How the data were processed

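RNA of MIN6 cells was measured on 12 Affymetrix arrays. The deposited table holds log2 values (3.94 to 14.4) of 35556 probe sets; the scale was read from the values, and the sources used here do not state the authors' summarization and normalization. The platform annotation of 2016 gave 21789 probe sets 1 symbol, 1621 several and 12146 none. Entrez identifiers of 21698 matched the reference table, and 0 symbols were updated. The brightest probe set stood for each of 19938 genes (999 had several), with no filter, and 0 columns were left out. Some genes are not analysed here.

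Differences were fitted in R 4.3.3 with limma 3.58.1 (lmFit, eBayes, 1 mean per group, 8 residual and 7.62 prior degrees of freedom) in 5 contrasts, two-sided, with Benjamini-Hochberg adjustment over all genes and a threshold of 0.05. The fit was tested on simulated data whose noise was independent between genes and arrays, with no shift that followed signal. That test therefore cannot tell how many calls such a shift makes in these data. The members, the 18 lists (281 entries, 255 measured) and the motifs were chosen with earlier results of these data known, and nothing here is independent support for them. The text names genes by rule: all members and Hes3, up to 4 called genes per list by smallest p (2 where none passed), and the 3 most alike genes per member by r. It prints part of them. Alternatives were quantile, median and cyclic loess scaling, dropping genes dimmer than the 40th percentile, trend and robust eBayes, only the arrays compared, a mean over probe sets, a replicate block, and leaving out arrays.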

Additional observations from a re-analysis of the deposited data

Results flagged for a closer look

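Adcy5 in the DC scrambled arrays had 1 array far from the others of its group. Array 1 was at 7.5049, and its distance to the nearest of the others was 0.919 of the range of the group, past Dixon's limit for 4 arrays. The rest lay between 7.61 and 7.62. Of 18 groups of 4 checked, this was the only one past the limit, and chance passes about 1 in 20. Without this array the difference of Adcy5 between the siRNA labels in DC was 0.23 (limma adjusted p = 0.0682).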

How the results depend on the processing

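Tacr3 and Cckbr kept their calls and directions under all 21 alternatives in each comparison where they were called: the log2 fold change of DC against CC ran from -1.92 to -1.39 (Tacr3) and -1.63 to -1.55 (Cckbr) with scrambled siRNA, from -2.50 to -2.20 and -1.93 to -1.63 with Hes3 siRNA, and Tacr3 between the siRNA labels in DC from -0.80 to -0.54. The call of Gcgr between the labels in DC was kept in 17 of 20 alternatives, that of Adcy5 in 12 of 20. In DC against CC with Hes3 siRNA, Gipr kept its call in 20 of 21, Adcy8 in 17 of 20 and Adcy5 in 5 of 20. Several alternatives cannot change a member's fold change, and these counts include them. Leaving out an array of a group not compared and trend and robust eBayes change only the estimated spread. The mean over probe sets leaves a member's values the same, as each had 1 probe set. Between the labels in DC, 1 of the 9 genes instead of 3 was called with dim genes left out (which removes Gcgr, Adcy5 and Adcy8), with the replicate block, and without DC arrays 1 and 5 labelled Hes3 siRNA; in DC against CC with Hes3 siRNA, 3 instead of 5 with dim genes left out. Over all genes, calls between the labels in DC numbered 9408 in the main setting, 5736 with quantile and 4297 with cyclic loess normalization, 5436 with dim genes left out and 331 without arrays 1 and 5; calls in DC against CC with Hes3 siRNA numbered 7986, against 5025, 5131 and 3631 under quantile, loess and without arrays 1 and 5. The share of higher calls between the labels in DC was 61.3%, against 59.0% (quantile), 36.7% (arrays centred on their median) and 39.4% (loess); with Hes3 siRNA in DC against CC it was 53.0%, against 40.7%, 17.3% and 36.5%. The cause was not tested. Leaving out 1 array at a time gave 2 to 6 of the 9 genes and 5754 to 10476 of all genes between the labels in DC, 2 of the 9 throughout and 742 to 2364 genes in DC against CC with scrambled siRNA, 2 to 7 of the 9 and 2357 to 9516 genes in DC against CC with Hes3 siRNA, 0 and 0 between the labels in CC, and 0 to 1 of the 9 and 0 to 2056 genes for the difference of the siRNA contrasts, all of them without CC scrambled array 2. Where this left 1 array in a group, it was taken to vary like the other groups. Between the labels in DC, Sstr3 passed under quantile (0.28, limma adjusted p = 0.0193) and loess (0.25, limma adjusted p = 0.031) and Ffar1 with arrays centred on their median (-0.24, limma adjusted p = 0.0303); both also passed without DC array 7 labelled Hes3 siRNA (limma adjusted p = 0.0238 and 0.0377), Sstr3 without DC scrambled array 3 (limma adjusted p = 0.0368) and Ffar1 without DC scrambled array 2 (limma adjusted p = 0.0302). Gipr passed there under quantile (0.24, limma adjusted p = 0.0489) and Adcy8 without DC array 7 labelled Hes3 siRNA (0.20, limma adjusted p = 0.0206). In DC against CC with Hes3 siRNA, Gcgr passed without CC scrambled array 1 or 2 (limma adjusted p = 0.0471 each) and without DC Hes3 array 2 or 7 (limma adjusted p = 0.0242 and 0.0243).

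Signs turned where values were small. Between the labels in DC, Adcy8 was -0.02, Glp1r 0.0536 and Hes3 -0.0242 under loess, Gipr -0.0338 with the replicate block, and Cckbr 0.10 (quantile), 0.12 (loess) and 0.13 (without arrays 1 and 5). In DC against CC with scrambled siRNA, Ffar1 was -0.0249 with arrays centred on their median and, like Sstr3, -0.0074 with the block. With Hes3 siRNA, Ffar1 was 0.0765 (quantile) and 0.078 (loess), Glp1r 0.0778, 0.18 and 0.0074 (quantile, loess and without arrays 1 and 5) and Hes3 -0.0307 and -0.0726 (quantile and loess). For the difference of the siRNA contrasts, Gcgr and Adcy5 were both -0.0057 without arrays 1 and 5, and Ffar1 was 0.0258 and 0.0348 under quantile and loess. Ranges over single arrays left out that crossed 0 were, between the labels in CC, -0.0004 to 0.24 (Adcy5), -0.14 to 0.0407 (Ffar1), -0.0074 to 0.051 (Sstr3), -0.25 to 0.27 (Tacr3), -0.22 to 0.0028 (Adcy9), -0.0273 to 0.33 (Dusp1) and -0.0057 to 0.41 (Hes3); between the labels in DC, -0.14 to 0.043 (Cckbr); in DC against CC, -0.0824 to 0.10 (Ffar1) and -0.0404 to 0.37 (Hes3) with scrambled siRNA and -0.0812 to 0.0005 (Glp1r) with Hes3 siRNA; and -0.26 to 0.16 for Hes3 in the difference of the siRNA contrasts.

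The groups share the replicate numbers 1 and 2 alone, and correlations of same-numbered arrays' deviations from their group means ran from -0.441 to 0.536. In each CC group of 2 arrays, the 2 deviations mirror each other. These correlations therefore cannot show whether same-numbered samples share more than a number. With the number as a block, the other DC arrays add nothing to the fit; 620 genes were called between the labels in DC, 804 in DC against CC with scrambled siRNA (1702 without the block) and 4051 with Hes3 siRNA. With the block, Gcgr had 0.38 (limma adjusted p = 0.0852) and Adcy5 0.34 (limma adjusted p = 0.0843) between the labels in DC, and Tacr3 had -0.65 (limma adjusted p = 0.0335).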
